A study of Mus musculus with 11 samples.

Results

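Ifnb1 and Ifna4 are 2 of the 93 genes counted in the spleens of 11 female mice, and they were chosen by name as the type I interferon genes of the panel. Ifnb1 encodes interferon-β and Ifna4 encodes an interferon-α. Cells make both proteins after they sense nucleic acids, either in the cytosol, where cGAS binds DNA and signals through STING to the transcription factors IRF3 and NF-κB, or in endosomes through Toll-like receptors. The secreted interferons act through a shared receptor and induce interferon-stimulated genes, and a raised level of these genes is a known feature of lupus. Of 17 interferon gene names looked for, 3 were on the panel, and the remaining member, Ifng, encodes the type II interferon.

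The mice fell into 5 groups. The 3 WT/Fas lpr and 4 cGAS KO/Fas lpr mice were of the lupus-prone MRL background and carried the Fas lpr mutation, and in the latter cGAS had been deleted in the MRL/lpr strain itself by CRISPR/Cas9. The remaining mice were of the C57BL/6 (B6) background, which does not develop lupus by itself, and comprised 1 uninjected B6 WT mouse, 1 uninjected B6 cGAS KO mouse and 2 B6 WT mice given DMXAA by injection. DMXAA is a compound that binds and activates the mouse form of STING. The sample labels of the MRL mice write neither Fas lpr nor KO, and these alleles were taken from the study's text. The age of these mice and the dose and time of DMXAA are not given in the sources used here. cGAS and STING are not on the panel, so the deletion could not be checked in these values.

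RNA was counted with the NanoString nCounter system, in which a color-coded probe binds each RNA and is counted without amplification. The deposited signal is each mouse's counts multiplied by a single factor, and the counts were recovered by dividing by that factor. The recovered counts of the 93 genes summed to between 28406 and 58404 in the Fas lpr mice, to 3612 for B6 WT and 12386 for B6 cGAS KO, and to 647148 and 600677 after DMXAA. Hence the panel totals differed widely between groups although 50 ng of RNA was used for each mouse, and these totals include the genes that changed. A recovered count under 20 is called low range here, since the background of the probes is not known. It held 10 to 16 of the 93 genes in the Fas lpr mice, 46 for B6 WT, 26 for B6 cGAS KO and 11 in each mouse given DMXAA.

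Ifnb1 was in the low range in all 7 Fas lpr mice and very high after DMXAA. WT/Fas lpr spleens had counts of 10, 13 and 12, while those of cGAS KO/Fas lpr animals had 10, 19, 9 and 11. The B6 WT spleen had 17 and the B6 cGAS KO spleen 23, whereas the spleens after DMXAA had 47509 and 38759. Thus the uninjected mice overlapped across strains and genotypes, and both DMXAA-injected mice lay above all of them. The 95% exact Poisson interval was 9.90 to 27.2 for the count of 17 and 14.6 to 34.5 for the count of 23, and these intervals overlapped. Only the B6 cGAS KO mouse among the 9 uninjected mice had an Ifnb1 count of at least 20, and none had a count of at least 50.

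Ifna4 was likewise in the low range without injection and far above it after DMXAA. WT/Fas lpr spleens had Ifna4 counts of 4, 6 and 11, while those of cGAS KO/Fas lpr animals had 5, 10, 8 and 3. For B6 WT the count was 14, for B6 cGAS KO 11, and after DMXAA 4528 and 4108. All 9 uninjected mice were in the low range for Ifna4, and the Fas lpr and B6 mice overlapped at a count of 11. The lowest count, 3 in cGAS KO/Fas lpr mouse 4, has an interval of 0.619 to 8.77, and the count of 11 in WT/Fas lpr mouse 3 has an interval of 5.49 to 19.7. These intervals cover counting error only. Of the 22 counts of the pair of genes, 5 reached 20 and 4 reached 50, and those 4 are the values of the DMXAA-injected mice.

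**Figure D1:**
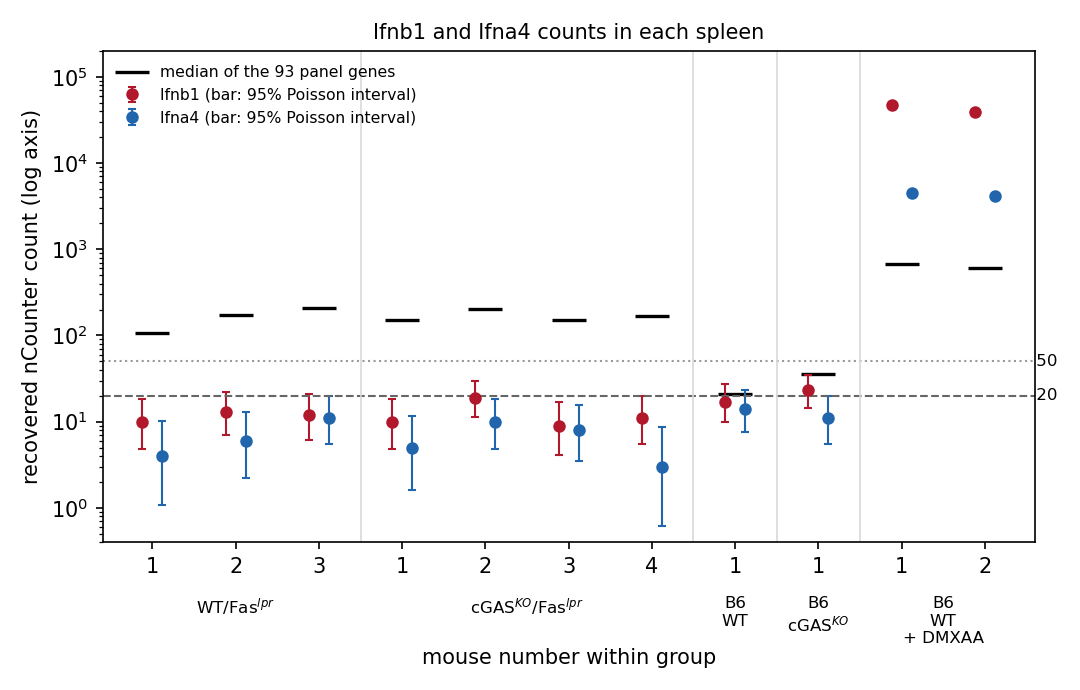
Recovered counts of Ifnb1 and Ifna4 in each of the 11 spleens on a log axis, with 95% exact Poisson intervals, the median count of the 93 panel genes in each mouse (black dashes) and lines at counts of 20 and 50. The 9 uninjected mice lie between 3 and 23, below the panel median of their mouse, and the DMXAA-injected mice lie between 4108 and 47509, above it.

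Counting error is large at these levels. Over the 7 Fas lpr mice Ifnb1 had a mean count of 12 with an SD of 3.37, and the square root of the mean, which is the SD of pure counting error, was 3.46. Ifna4 had a mean of 6.71 with an SD of 3.04, beside a square root of 2.59. At such means, with totals that differ between mice, a spread between animals cannot be told apart from counting error.

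Relative to the rest of the panel, both genes were near the bottom in the Fas lpr mice and ranked higher in the uninjected B6 mice. From the highest count down, Ifnb1 ranked 82 to 88 and Ifna4 89 to 93 of 93 in the Fas lpr mice. Ifnb1 ranked 51 in the B6 WT and 61 in the B6 cGAS KO mouse, and Ifna4 ranked 61 and 79. After DMXAA, Ifnb1 ranked 5 in both mice and Ifna4 ranked 15 and 16. Counts of different probes are not corrected for probe efficiency, so these ranks order the counts and not the transcripts. In the B6 WT mouse, where 46 genes were in the low range, ranks 51 and 61 are an order among low-range counts.

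As a multiple of the mouse's median count over the 93 genes, Ifnb1 stood at 0.0943, 0.0747 and 0.0580 for WT/Fas lpr and at 0.0658, 0.0941, 0.0592 and 0.0659 for cGAS KO/Fas lpr. B6 WT had 0.810, B6 cGAS KO 0.639, and the DMXAA-injected mice 69.8 and 64.1. Ifna4 was 0.0180 to 0.0531 times the median in the 7 Fas lpr mice, 0.667 times for B6 WT, 0.306 times for B6 cGAS KO, and 6.65 and 6.79 times after DMXAA. On this scale the 3 sets of mice did not overlap for either gene. The panel median itself was 106 to 207 for the Fas lpr mice, 21 for B6 WT, 36 for B6 cGAS KO, and 681 and 605 after DMXAA.

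Among the 93 genes, 9 had a count under 20 in all 7 Fas lpr mice, a count made after the values were seen, and Ifnb1 and Ifna4 were among them. Of the 9, 5 had counts of only 1 to 18 in the DMXAA-injected mice despite the greater total, whereas Ifnb1 and Ifna4 had the highest counts there.

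To ask how far the interferon genes differed after DMXAA, the 2 injected mice were compared with the uninjected B6 WT mouse. The series holds no vehicle-injected or STING-deficient mouse, so the part of STING in this difference was not tested. Tests used log2(count + 1) minus the mouse's panel median of the same quantity. Ifnb1 averaged 6.06 ± 0.087 (SD, n = 2) after DMXAA against -0.29 in the B6 WT mouse, and Ifna4 averaged 2.75 ± 0.021 (SD, n = 2) against -0.55. Both genes rose, Ifnb1 by 6.35 (standard error 0.31, adjusted p = 4.32e-08 from limma) and Ifna4 by 3.30 (standard error 0.46, adjusted p = 7.53e-05), in 2 of 2 injected mice. Of the 93 genes 37.6% were called higher and 50.5% lower on this scale, and Ifnb1 and Ifna4 had the 5th and 12th highest differences. The lone B6 WT mouse is assumed to vary like the mice of other groups. In spleen RNA, more producing cells and more RNA per cell cannot be told apart.

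The size of this rise depended on the scale, and its direction was the same on each scale and with each pseudocount tried, and without either injected mouse. In raw counts, Ifnb1 was 2795 and 2280 times the B6 WT count in the 2 injected mice, and Ifna4 was 323 and 293 times. Relative to the panel median these multiples were 86.2 and 79.1 for Ifnb1 and 9.97 and 10.2 for Ifna4. On the deposited signal the log2 difference was 14.83 for Ifnb1 and 11.67 for Ifna4, and on unscaled counts it was 11.22 and 8.17. The median difference over all 93 genes was -0.93 on the main scale, -0.41 with median-of-ratios scaling, 3.94 on unscaled counts and 7.87 on the deposited signal, so that Ifnb1 and Ifna4 exceeded the panel on each of these. The calls split into 35 higher and 47 lower on the main scale, 73 and 2 on unscaled counts, and 93 and 0 on the deposited signal. All these multiples rest on B6 WT counts of 17 and 14, where part of the count may be background, which was not tested.

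The DMXAA-injected mice were also set against the 7 Fas lpr mice, to place the lupus-prone spleens beside the values reached after DMXAA. These are the same injected mice, of another strain than the mice they are compared with. This comparison by itself therefore does not separate treatment from strain. Within B6, the main-scale differences from the 1 uninjected WT mouse were 6.35 for Ifnb1 and 3.30 for Ifna4. Ifnb1 was 9.74 higher after DMXAA (standard error 0.21, adjusted p = 6.96e-11 from limma), the highest difference of the 93 genes on this scale. Ifna4 was 7.24 higher (standard error 0.30, adjusted p = 5.04e-09) and had the 4th highest. In each case both injected mice lay above all 7 Fas lpr mice. On this scale 33.3% of the 93 genes were called higher and 55.9% lower, as 31 and 52 genes, against 39 and 42 with median-of-ratios scaling, 52 and 23 on unscaled counts and 54 and 5 on the deposited signal. Ifnb1 alone made up 7.34% and 6.45% of all panel counts in the injected mice, compared to 0.0206% to 0.0352% in the Fas lpr mice. For Ifna4 these shares were 0.700% and 0.684% after DMXAA and 0.00637% to 0.0188% in the Fas lpr mice.

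Whether lupus-prone spleens hold more interferon RNA than B6 spleens was addressed by comparing the 7 Fas lpr mice with the 2 uninjected B6 mice. The latter were 1 WT and 1 cGAS KO mouse, each assumed to vary like the mice of other groups. The MRL background, the Fas lpr mutation and disease cannot be told apart in this comparison. Neither gene had a higher median count in the Fas lpr mice, and the ranges overlapped or met. The Ifnb1 count was 9 to 19 with a median of 11 in the Fas lpr mice against 17 and 23 in B6, and the Ifna4 count was 3 to 11 with a median of 6 against 14 and 11. Relative to the panel median both were lower in the Fas lpr mice, Ifnb1 at -3.22 log2 (standard error 0.21, limma adjusted p = 1.02e-06) and Ifna4 at -3.40 (standard error 0.30, adjusted p = 9.28e-06), where 28.0% of the 93 genes were called higher and 40.9% lower. Both were also lower with median-of-ratios scaling (-3.12 and -3.30) and on the centred deposited signal (-3.30 and -3.58), which likewise scale each mouse by its panel genes. The panel median count was 106 to 207 in the Fas lpr mice, against 21 for B6 WT and 36 for B6 cGAS KO. On such scales, similar low counts over these unequal medians give a lower value in the Fas lpr mice. Among the scales tried, the sign turned on the deposited signal without centring, where the differences were 1.59 and 1.30, both called higher, as were all 93 genes. On unscaled counts they were -0.71 (adjusted p = 0.0514) and -0.89 (adjusted p = 0.0146), where 83 genes were called higher and 2 lower, Ifna4 and the phosphatase gene eya4, which was named after its values were seen. The deposited signal of Ifnb1 was 6.70 to 21.4 over the Fas lpr mice, against 1.40 for B6 WT and 6.83 for B6 cGAS KO, whose factors were 0.0823 and 0.297. The part of probe background in these low counts was not tested.

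Loss of cGAS was examined within the Fas lpr mice. On the main scale Ifnb1 averaged -3.64 ± 0.36 (SD, n = 3) with cGAS and -3.72 ± 0.26 (SD, n = 4) without it. For Ifna4 the averages were -4.39 ± 0.27 (SD, n = 3) and -4.59 ± 0.59 (SD, n = 4). The genotypes overlapped for both genes, and the differences were smaller than the spread between mice. The log2 difference, knockout minus WT, was -0.079 for Ifnb1 (standard error 0.21, 95% interval -0.55 to 0.39, adjusted p = 0.997 from limma) and -0.20 for Ifna4 (standard error 0.30, 95% interval -0.89 to 0.50, adjusted p = 0.997). As a ratio the intervals run from 0.683 to 1.31 for Ifnb1 and from 0.540 to 1.41 for Ifna4. With limma 0 of the 93 genes (0%) were called in either direction, and 1 had an unadjusted p under 0.05. An exact two-sided Mann-Whitney test gave p = 0.857 for each gene, and 3 mice against 4 cannot give less than 0.0571. The sign turned for Ifnb1 without WT/Fas lpr mouse 1 (0.10) and for Ifna4 without cGAS KO/Fas lpr mouse 4 (0.071). Since the counts of both genotypes lay in the low range, these intervals describe the counts with any background they hold.

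The effect of cGAS loss could be set against that in B6 mice only through 1 mouse of each B6 genotype. There the Ifnb1 count was 17 with cGAS and 23 without, and the Ifna4 count was 14 with and 11 without. The cGAS effect in Fas lpr mice minus that in B6 mice was 0.26 for Ifnb1 (standard error 0.41, adjusted p = 0.670 from limma) and 0.88 for Ifna4 (standard error 0.61, adjusted p = 0.312). Neither passed the threshold, where 5.38% of the 93 genes were called higher and 28.0% lower. The split of 5 higher and 26 lower became 8 and 26 when the deposited signal was centred, 16 and 12 with median-of-ratios scaling, 0 and 19 on unscaled counts, and 0 and 29 on the deposited signal. The sign of the difference also turned on the deposited signal, to -1.71 for Ifnb1 and -1.13 for Ifna4, and on unscaled counts to -0.40 for Ifnb1, with 0.22 for Ifna4. With median-of-ratios scaling it was 0.84 for Ifnb1 and 1.46 for Ifna4. For Ifnb1 it was 0.44 without WT/Fas lpr mouse 1, 0.077 without WT/Fas lpr mouse 3 and 0.13 without cGAS KO/Fas lpr mouse 2, and none of these values passed the threshold.

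The ratio of Ifnb1 to Ifna4 within a mouse is free of any factor of that mouse. Since probe efficiencies differ, it is a ratio of counts and not of transcripts. For WT/Fas lpr it was 2.50, 2.17 and 1.09, and for cGAS KO/Fas lpr 2.00, 1.90, 1.13 and 3.67. B6 WT had a ratio of 1.21 and B6 cGAS KO of 2.09, and DMXAA injection gave 10.5 and 9.44. Ifnb1 thus gave more counts than Ifna4 in all 11 mice, and the excess was greater in both injected mice than in any uninjected mouse. The 95% exact binomial interval of the ratio included 1 in each of the 9 uninjected mice, with bounds as far apart as 0.969 and 20.5 in cGAS KO/Fas lpr mouse 4. After DMXAA it was 10.2 to 10.8 and 9.14 to 9.75. As a share of the counts of both genes, Ifnb1 made up 91.3% and 90.4% in the injected mice and 52.2% to 78.6% in the Fas lpr mice.

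The mean log2 ratio, with 1 added to each count, was 3.31 ± 0.11 (SD, n = 2) after DMXAA and 0.82 ± 0.53 (SD, n = 7) in the Fas lpr mice. The difference of 2.50 had a two-sided exact permutation p = 0.0278, the smallest that the 36 divisions of these mice can give. After adjustment over the 2 ratio comparisons it was 0.0556, which misses the threshold of 0.05. Beside the permutation p = 0.857 of the other comparison no lower adjusted value was possible, so the number of mice fixed this miss. The mean was 0.75 ± 0.55 (SD, n = 3) for WT/Fas lpr and 0.87 ± 0.58 (SD, n = 4) without cGAS, and the log2 ratio differed by 0.12, within the spread of the mice (exact permutation p = 0.857 over 35 divisions, adjusted p = 0.857). The value turned to -0.20 without WT/Fas lpr mouse 3 and to -0.12 without cGAS KO/Fas lpr mouse 4. In the uninjected mice both counts lay at or near the low range, and the part of probe background in their ratio was not tested.

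**Figure D2:**
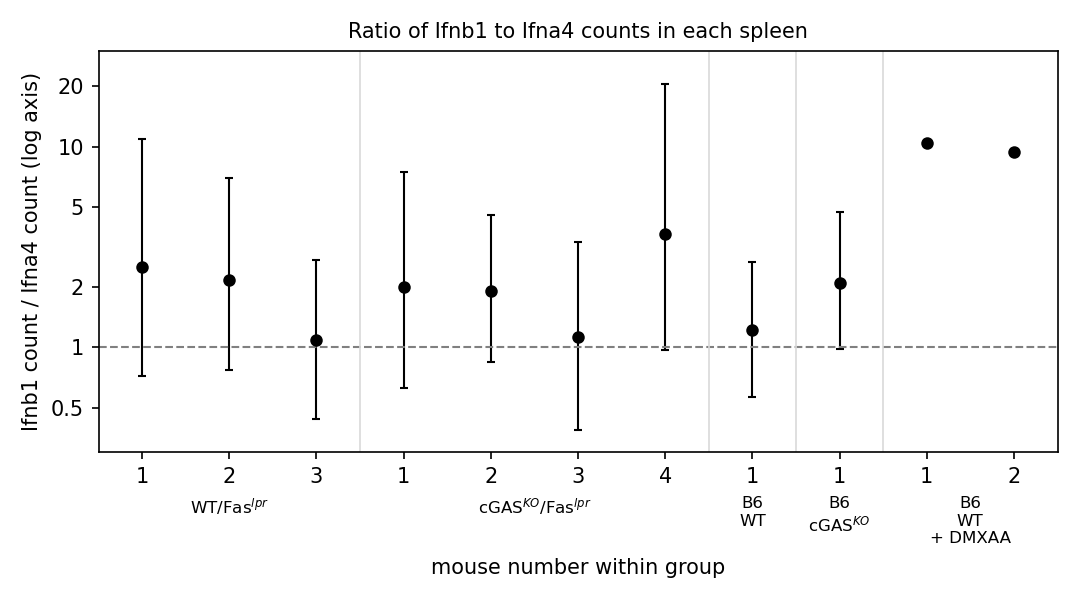
Ratio of the Ifnb1 count to the Ifna4 count in each of the 11 spleens on a log axis, with 95% exact binomial intervals and a dashed line at 1. The 9 uninjected mice lie between 1.09 and 3.67 with intervals that include 1, and the DMXAA-injected mice lie at 10.5 and 9.44, with intervals narrower than the points.

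The panel genes with profiles most like these interferon genes were found by the root-mean-square difference of the main-scale values over the 11 mice, each gene taken relative to its own mean over the 5 groups. For Ifnb1 they were ccl4 (1.05), Ifna4 (1.07), Ifit1 (1.12), tnfa (1.79) and cxcl2 (1.88). For Ifna4 they were Ifnb1 (1.07), Il6 (1.20), ccl4 (1.27), Ifit1 (1.30) and cxcl2 (1.42). Each gene of the pair was thus among the closest to the other. The remaining genes are inflammatory mediators, apart from Ifit1, an interferon-stimulated gene whose product binds viral RNA. The chemokine gene ccl4 had counts of 38 to 69 across the Fas lpr mice, 13 and 26 in the uninjected B6 mice, and 63641 to 64148 after DMXAA. Il6 stayed closer to the low range, with 10 to 28, then 11 in both uninjected B6 mice, and 1532 to 1879. In contrast to Ifnb1, ccl4 and Ifit1 had counts of 20 or more in all 7 Fas lpr mice, with Ifit1 at 26 to 73.

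Genes that act before and after type I interferon were taken from lists and compared between DMXAA-injected and uninjected B6 WT mice on the main scale, where the median over all 93 genes was -0.93. All 93 genes were higher on the deposited signal, so that the falls given here are relative to the panel median. Of the 10 interferon-stimulated genes on the panel, 8 rose and 2 did not pass the test, beside 37.6% of all 93 genes called higher and 50.5% lower. Their median difference was 1.73. The number that rose was 7 on the centred deposited signal and with a pseudocount of 10, and 10 with median-of-ratios scaling, on unscaled counts and on the deposited signal. Ifit1 rose from a count of 11 to 58669 and 55296, a log2 difference of 7.34, which exceeds that of Ifnb1. The chemokine gene cxcl10 rose from 16 to 78085 and 76417, by 7.28. Ifit2 rose from 9 to 30190 and 24734, by 6.55. The antiviral gene viperin rose from 114 to 181097 and 174684, by 5.73. On the main scale Ifnb1 lay between Ifit2 and viperin in this order, and Ifna4 with 3.30 below all 4. The place of Ifnb1 depended on the scale. On the deposited signal it was at 14.83, whereas Ifit2 and viperin reached at most 14.64 and 14.77 in any setting.

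Among the listed upstream genes and negative regulators, differences on this scale ran in both directions. Of 13 nucleic acid sensors and adaptors, 3 rose, 3 fell and 7 did not pass the test, with a median of 0.093, beside the panel's 37.6% higher and 50.5% lower, and with median-of-ratios scaling 7 rose and 3 fell. Ifi204, a DNA-binding protein of the PYHIN family, went from a count of 11 to 3995 and 3744 (3.46). The RNA sensor regulator lgp2 went from 23 to 2828 and 2617 (1.96). The endosomal receptor tlr9 went from 25 to 72 and 81 and unc93b, which carries such receptors to endosomes, from 412 to 2473 and 2262, so that both gained counts and fell relative to the panel median (-3.30 and -2.35). Of the kinases and transcription factors looked for, 5 were on the panel, all of them transcription factors. Of these, 2 rose and 3 fell, a split near the panel's 37.6% and 50.5%. Irf1 went from 111 to 20997 and 19236 (2.62), and Irf7, the factor that amplifies interferon-α transcription, from 33 to 4162 and 3805 (2.00). Irf5 (-2.32) and nfkb2 (-2.35) fell relative to the panel median while their counts went from 160 to 961 and 925 and from 112 to 681 and 611. Of 6 negative regulators, 3 rose and 3 fell (2 with median-of-ratios scaling), also near the panel's 37.6% and 50.5%. Among them were socs1, an inhibitor of cytokine receptor signaling (21 to 7088 and 7323, 3.49), a20 (34 to 7485 and 5365, 2.63), IkBa (39 to 4500 and 4337, 1.92) and IrakM (22 to 104 and 72, -2.94).

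The type II interferon gene Ifng did not follow Ifnb1 and Ifna4. Counts of Ifng were 21 to 71 with a median of 52 over the 7 Fas lpr mice, 12 for B6 WT, 19 for B6 cGAS KO, and 17 and 29 after DMXAA. It was thus above the low range in every Fas lpr mouse, where Ifnb1 and Ifna4 were in it. Against the B6 WT mouse the DMXAA-injected mice differed by -4.03 (standard error 0.46, adjusted p = 2.19e-05 from limma) relative to the panel median and by 0.84 (adjusted p = 0.144) on unscaled counts, so that its direction depends on the scale.

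Interferon-stimulated genes were also compared between Fas lpr and uninjected B6 mice. Relative to the panel median 6 of the 10 rose, 2 fell and 2 did not pass the test with limma, beside 28.0% of all 93 genes called higher and 40.9% lower, with a median of 0.85 against -0.072 over all 93 genes, while the 3 interferon genes were all lower on this scale. Among the genes named above, cxcl10 had counts of 337 to 757 against 16 and 112 in B6 (1.19), and Ifit1 (-0.86) had 26 to 73 and 11 and 15. Ifit2 (0.13, adjusted p = 0.545) and viperin (0.13, adjusted p = 0.398) did not pass the test. Thus Ifit1 was lower relative to the panel median although its counts were higher. The same held for Ifng (-0.98), with counts of 21 to 71 in the Fas lpr mice against 12 and 19 in B6. On the deposited signal all 93 genes were higher. Markers that would show which cells were present could not be set beside Ifnb1 and Ifna4. Of 8 plasmacytoid dendritic cell markers, 7 T cell, 6 B cell and 9 macrophage and monocyte markers looked for, 0 were on the panel, so that the cell makeup of the spleens and its part in these levels was not tested.

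**Figure D3:**
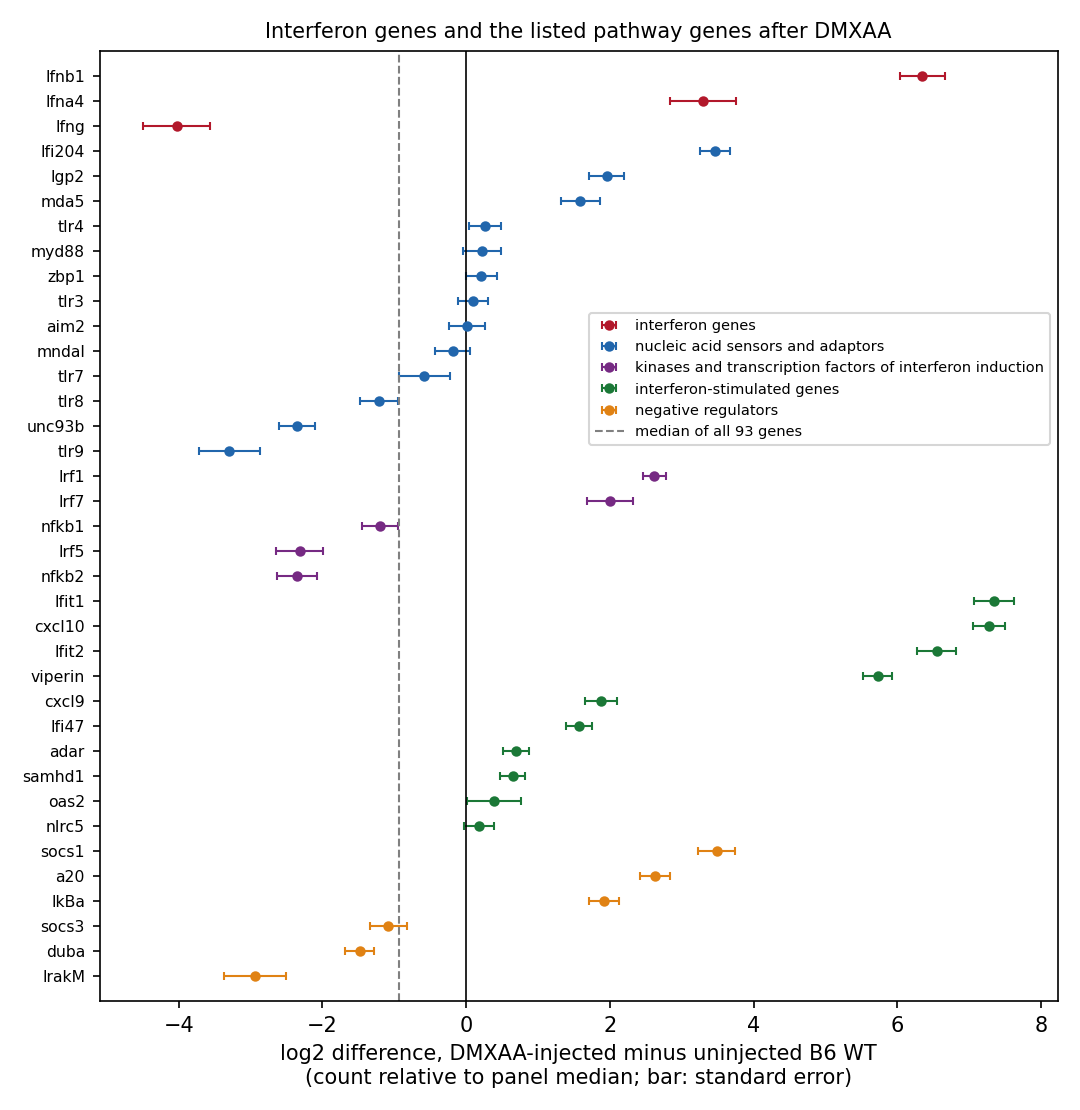
Log2 difference between DMXAA-injected (n = 2) and uninjected B6 WT (n = 1) spleens, as count relative to the panel median, for Ifnb1, Ifna4, Ifng and the listed genes of sensing, transcription, response and feedback, with standard errors from limma and a dashed line at the median of all 93 genes. Ifnb1 (6.35) lies among the interferon-stimulated genes Ifit1, cxcl10, Ifit2 and viperin, and Ifna4 (3.30) beside Ifi204 and socs1, and on the deposited signal all genes shown were higher.

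In RefSeq's annotation of the mouse build GRCm38.p6 Ifnb1 and Ifna4 both lie on chromosome 4, with transcription starts 319 kb apart and on opposite strands, and both had an entry in the promoter table. The stretches from 250 to 51 bases before each start are shown because the genes rose together after DMXAA. Capitals mark matches, searched on both strands of the 250 bases before the start, to AANNGAAA and GAAANNGAA, which are patterns of the interferon regulatory factor (IRF) type, to GGGANNTTC of the NF-κB type and to TATAAA. The first is Ifnb1 at chr4:88522845-88523044 on the minus strand and the other Ifna4 at chr4:88841566-88841765 on the plus strand, each written 5′ to 3′ along the gene.
Ifnb1: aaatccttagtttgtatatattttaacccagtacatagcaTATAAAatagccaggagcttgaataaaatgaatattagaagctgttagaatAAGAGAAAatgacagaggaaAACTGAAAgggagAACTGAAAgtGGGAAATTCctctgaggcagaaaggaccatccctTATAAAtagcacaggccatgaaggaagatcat
Ifna4: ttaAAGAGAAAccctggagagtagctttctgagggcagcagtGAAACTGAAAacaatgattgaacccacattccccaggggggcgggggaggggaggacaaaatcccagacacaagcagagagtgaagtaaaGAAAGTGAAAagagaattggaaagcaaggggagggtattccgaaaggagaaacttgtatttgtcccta

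Both stretches held 3 matches to AANNGAAA. In Ifnb1 they began 159, 139 and 126 bases before the start, and in Ifna4 247, 206 and 116. Of all 32851 mouse promoters in the table, 21.3% held this pattern in the same 250 bases. GAAANNGAA matched 2 times in Ifna4, each time overlapping a match to AANNGAAA, and 0 times in Ifnb1, and 7.13% of all promoters held it. The pattern GGGANNTTC matched 1 time in Ifnb1, next to the IRF-type match closest to the start and 116 bases before it, and 0 times in Ifna4, compared to 3.23% of all promoters. TATAAA matched 2 times in Ifnb1, 210 and 82 bases before the start, and 0 times in Ifna4, compared to 12.4% of all promoters. These are matches of letters and not measured binding sites, and a pattern without a match says only that these letters are not in this window.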

How the data were processed

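Spleen RNA of 11 mice (50 ng each) was hybridized to a custom nCounter probe set. The authors normalized the counts to housekeeping genes that are not named in the sources used here, and the deposited signal is linear. Background subtraction and positive-control scaling are not stated. For each mouse the factor of which all values are whole multiples was found, and 1023 of 1023 values were whole within 0.0001. Signal divided by the factor is the recovered count.

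The main scale is log2(count + 1) minus the mouse's median of this over the 93 genes. Two-sided tests came from limma 3.58.1 in R 4.3.3 with its functions lmFit and eBayes. Their p-values were adjusted over all 93 genes by the Benjamini-Hochberg method, and 0.05 was the threshold. The Fas lpr genotypes were compared in a fit of their 7 mice, and each other comparison in a fit of all 11, where single mice are assumed to vary like the other groups. Fas lpr is the unweighted mean of both genotypes. Fold changes on this scale understate changes of low counts. The log2 ratio of Ifnb1 to Ifna4 was tested by exact permutation. Intervals are exact Poisson, exact Clopper-Pearson binomial (SciPy 1.17.1, Python 3.11.15) or limma's.

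Members and gene lists were chosen with earlier results of these data known. Genes named are Ifnb1 and Ifna4, the 5 genes closest to each in profile, the listed interferon genes, and from each other list up to 4 panel genes with the largest difference between DMXAA-injected and uninjected B6 WT mice. Names were matched without regard to case and hyphens. One gene that this rule would name is not reported here.

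Replicate counts differed by chi-square, at 2.91 to 27.1 times the degrees of freedom, so every mouse was counted as a sample. The labels number separate mice. The limma step was tested on simulated data for the comparison of the Fas lpr genotypes and that of DMXAA-injected with Fas lpr mice. The comparisons that rest on single uninjected B6 mice were not simulated. Alternatives were the deposited signal with and without centring, median-of-ratios scaling, pseudocounts of 0.5 and 10, a filter that drops genes whose mean count is under 20, a robust eBayes fit with a trend, all 11 mice in the fit, mouse number as a block, the Mann-Whitney test that the study names, a low-range limit of 50, leaving out each mouse in turn, and, chosen after seeing the data, unscaled counts. Promoter sequences are RefSeq's (GRCm38.p6).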

Additional observations from a re-analysis of the deposited data

How the results depend on the processing

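The rises of Ifnb1 and Ifna4 after DMXAA, against the B6 WT mouse and against the Fas lpr mice, kept their direction and stayed past the threshold on each scale and with each pseudocount tried, and without either injected mouse, from 6.24 to 14.83 and 9.02 to 12.38 for Ifnb1 and from 3.09 to 11.67 and 6.11 to 9.87 for Ifna4. The filter on low counts, which both genes pass only through the DMXAA-injected mice, the robust fit and the leaving out of mice outside a comparison cannot move its difference and are not counted as support. Neither gene was called between the Fas lpr genotypes under any of the alternatives that gave a value. Among these, the Mann-Whitney test could not call a gene, since its smallest possible p here is 0.0571. With each mouse left out in turn, Ifnb1 ran from -0.26 to 0.10 there, Ifna4 from -0.36 to 0.071 and the ratio from -0.20 to 0.36. Ifnb1 turned to 0.016 on unscaled counts.

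Mouse numbers do not pair the mice, as deviations of same-numbered mice correlated at -0.214, 0.252 and 0.0761 over the genes. With the number as a replicate block Ifnb1 differed by -0.050 and Ifna4 by 0.071, and 0 genes were called by limma, as without the block, with 2 at an unadjusted p under 0.05.

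On the deposited signal without centring, Fas lpr against B6 mice turned to 1.59 for Ifnb1 and 1.30 for Ifna4, and the difference of cGAS effects to -1.71 and -1.13. On unscaled counts Ifnb1 was at -0.71 in the former, no longer called, and at -0.40 in the latter. Between DMXAA-injected and B6 WT mice, genes that fell relative to the panel median turned to higher on the deposited signal and on unscaled counts: Ifng to 4.22 and 0.84 (the latter not called), tlr9 to 5.35 and 1.57, unc93b to 6.78 and 2.52, nfkb2 to 6.68 and 2.52, Irf5 to 6.76 and 2.55, and IrakM to 5.66 and 1.93. Neither setting centres a mouse on its panel median, and the cause was not tested.

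The difference of the ratio between DMXAA-injected and Fas lpr mice stayed between 2.38 and 2.91, and its adjusted p between 0.0556 and 0.25. With an injected mouse left out, 8 divisions remain and p cannot be below 0.125. With genes under a mean count of 20 left out there is no value for Ifnb1 or Ifna4 between the Fas lpr genotypes, since both were left out. Counts of 3 to 23 in the uninjected mice, a single mouse for each uninjected B6 genotype and an unmeasured background limit these comparisons, and the size of the rises after DMXAA with them.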
